A study of Mus musculus with 28 samples.

Results

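Sterol and fatty acid synthesis was followed through 29 genes, chosen by symbol for their place in the pathway, out of 54429 genes in the count table. The set held 8 genes of the mevalonate arm, 3 of squalene formation and ring closure, 8 of the conversion of lanosterol to cholesterol, 4 regulators, 5 genes of fatty acid synthesis and 1 sterol carrier. All 29 were found in the table and all 29 passed the filter on low counts in every comparison. Cells make cholesterol from acetyl-CoA through mevalonate, squalene and lanosterol, and several steps from squalene onwards use molecular oxygen, as does the desaturation of fatty acids. When sterols in the endoplasmic reticulum run low, the transcription factors SREBP1 and SREBP2 (genes Srebf1 and Srebf2) are released and switch on most of these genes, while the INSIG proteins hold SREBP in the membrane when sterols are ample. Cholesterol matters in the neural crest and the forming face because Hedgehog proteins carry it, and inherited loss of DHCR7, the last enzyme of one branch, causes craniofacial malformations.

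The study asked how low oxygen bears on the differentiation of cranial neural crest cells, the embryonic cells that build much of the facial skeleton. O9-1, a mouse cell line of that origin with no allele or agent named beyond the media, was kept at 21% O2 (normoxic, 4 libraries per group) or 0.5% O2 (hypoxic, 3 libraries per group) in 4 kinds of culture, 28 libraries in all. Proliferating cells grew in STO-conditioned medium with 15% fetal calf serum, 25 ng/ml bFGF and 5 ng/ml LIF. Osteoblast cultures had 10 days in medium with 10% serum, beta-glycerophosphate, 0.1 µM dexamethasone and 100 ng/ml BMP-2. Chondrocyte cultures had 3 days in that osteogenic medium and then 7 days as micromasses on matrigel, with 5% serum, insulin-transferrin-selenium, 0.1 µM dexamethasone, 10 ng/ml TGF-beta3 and 50 ng/ml BMP-2. Smooth muscle cultures had 3 days in DMEM with 10% serum. All groups come from 1 cell line. The time that proliferating cells spent at 0.5% O2 is not given in the sources used here. The labels number the replicates without saying whether they were separate cultures, so the p-values measure the spread between libraries, which may be technical.

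Total counts were 19869271 to 64693346 per library. The oxygen label was checked with 10 genes of the hypoxia response, and 10 of 10 were higher at 0.5% O2 in each of the 4 kinds of culture. Of all genes tested, 33.1% were higher in proliferating, 10.4% in chondrocyte, 27.0% in osteoblast and 35.4% in smooth muscle cultures. The labelled cell types were borne out unevenly by their markers. In smooth muscle cultures at 0.5% O2 the 5 smooth muscle markers summed to 94.7 to 119 CPM (gene counts relative to the TMM-scaled library size, the unit of all levels below), against 3530 to 3990 CPM at 21% O2, 94.0 to 103 CPM in proliferating cells at 21% O2 and 191 to 195 CPM in proliferating cells at 0.5% O2. Their 6 neural crest markers summed to 2960 to 3700 CPM, against 805 to 984 CPM in normoxic smooth muscle cultures. Most of that sum was Crabp1, at a mean of 2640 CPM against 622 CPM. Tfap2a went the other way, with a mean of 85.4 CPM against 128 CPM. Of 4 neural crest markers tested 3 were higher at 0.5% O2 and 1 lower, where 35.4% of all genes were higher and 40.2% lower. Those hypoxic libraries also held 11.6 to 13.3% mitochondrial ribosomal RNA, where every other library held at most 0.0889%. Among normoxic osteoblast cultures, replicate 4 had the osteoblast markers Alpl (alkaline phosphatase) at 40 CPM and Sp7 (osterix) at 45.4 CPM. Replicates 1 to 3 had Alpl at 1.61, 2.52 and 1.39 CPM and Sp7 at 1.15, 0.67 and 1.36 CPM, so both genes were near 0 in 3 of the 4 libraries. Runx2, an earlier osteoblast gene, was at 59.6, 69.1 and 68.2 CPM in those 3 and at 57.1 CPM in replicate 4, against 58.2 to 67.3 CPM in normoxic proliferating cells. The hypoxic osteoblast libraries had Alpl at 68.2 to 83.1 CPM and Sp7 at 96.2 to 96.9 CPM. Lineage markers were not confined to their own cultures: smooth muscle markers summed to 3560 to 5100 CPM in normoxic osteoblast libraries, and osteoblast markers to 1100 to 2600 CPM in normoxic chondrocyte libraries. Adipocyte markers summed to at most 64.4 CPM and endothelial ones to at most 7.62 CPM in any library, and macrophage markers to 33.6 to 37.4 CPM in hypoxic smooth muscle libraries and at most 5.85 CPM elsewhere. That sum was nearly all Cd68 (mean 35 CPM), with Csf1r at 0.541 CPM, Ptprc at 0.0926 CPM and Adgre1 at 0. Group names below follow the labels. In bulk RNA, fewer cells of a type and less RNA per cell cannot be told apart.

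Promoter letters are shown for 3 genes that the results turn on: Hmgcs1, the only matched one holding the sterol regulatory element searched for, Mvd, with the largest rise in smooth muscle cultures and a large fall in osteoblast cultures, and Insig2, the only one called higher in all 4 oxygen responses. RefSeq promoter windows (GRCm38.p6, 250 bases before to 50 after each gene start) matched 23 of the 29 genes. Scd1, Scd2, Fdft1, Fdps, Sqle and Stard4 were not matched. The sequences below are the 250 bases before the start, 5′ to 3′ on the gene's strand. Capitals mark TCACNCCAC, a form of the sterol regulatory element that SREBP binds, and CCAAT, the motif of NF-Y, on either strand (CCAAT reads ATTGG on the other).
Hmgcs1: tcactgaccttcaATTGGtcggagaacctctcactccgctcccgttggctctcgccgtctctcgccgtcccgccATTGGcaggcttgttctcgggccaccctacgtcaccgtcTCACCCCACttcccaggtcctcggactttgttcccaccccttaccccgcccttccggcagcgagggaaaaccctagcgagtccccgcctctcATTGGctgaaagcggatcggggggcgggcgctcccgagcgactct
Mvd: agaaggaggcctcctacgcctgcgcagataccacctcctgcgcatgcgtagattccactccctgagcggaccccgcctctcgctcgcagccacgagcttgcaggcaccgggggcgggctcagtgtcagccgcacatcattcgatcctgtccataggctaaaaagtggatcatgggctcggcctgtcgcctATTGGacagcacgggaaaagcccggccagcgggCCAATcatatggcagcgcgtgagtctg
Insig2: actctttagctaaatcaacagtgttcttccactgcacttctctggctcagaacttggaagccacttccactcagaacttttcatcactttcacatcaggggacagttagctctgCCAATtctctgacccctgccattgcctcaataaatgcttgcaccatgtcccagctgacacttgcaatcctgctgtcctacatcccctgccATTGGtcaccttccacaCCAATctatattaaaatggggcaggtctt
These stretches lie at chr13:119690101-119690350 (plus strand) for Hmgcs1, chr8:122443423-122443672 (minus strand) for Mvd and chr1:121332590-121332839 (minus strand) for Insig2. They hold 3, 2 and 3 copies of CCAAT. Insig2 has 3 windows in the table, and the other two hold none of the motifs. Over all windows of a gene, on both strands, CCAAT was found in 21 of the 23 genes, against 41.1% of all 27025 genes in the table. TCACNCCAC was found in 1 of 23, Hmgcs1, against 1.44% of all genes. ACGTG, the core of the hypoxia response element, was found in 5 of 23 (Acly, Dhcr7, Hsd17b7, Insig1 and Sc5d), against 21.8% of all genes, and a CACGTG palindrome counts on both strands. A match is a description of letters and not a binding site.

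Across the 8 groups the genes were highest in proliferating cells and, for a subset, in hypoxic smooth muscle cultures. By group mean, 12 of 29 were highest in hypoxic proliferating cells, 8 in hypoxic smooth muscle, 4 in normoxic proliferating cells and 3 in normoxic osteoblast cultures. Scaled by total count alone, an alternative chosen after seeing the data, 16 were highest in hypoxic proliferating cells and 1, Mvd, in hypoxic smooth muscle. The lowest group was hypoxic osteoblast for 12 genes and hypoxic chondrocyte for 8 on the TMM scale, and hypoxic smooth muscle for 12 when scaled by total count. Per kilobase of exon, Scd2, which encodes a stearoyl-CoA desaturase, led in normoxic proliferating cells at 346 CPM per kb. It was followed there by Acly, ATP-citrate lyase, at 84.0 CPM per kb, and Scd1, the other main desaturase, at 81.3 CPM per kb. Reads of the paralogs Scd1 and Scd2 could be exchanged where their sequences match. Fdps (farnesyl diphosphate synthase) was scarce, with 12 to 474 counts per library. Fdps and Tm7sf2 overlap other annotated genes on the same strand, and Srebf1, Srebf2, Acly, Acaca and Scd2 overlap miRNA or unconfirmed gene models there. Since the strand setting of the counting is not given in the sources used here, genes on the other strand bear on Fdft1 (Ctsb), Mvd (Gm20388), Cyp51 (Akap9) and others as well, and reads in shared exons are of uncertain origin.

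**Figure D1:**
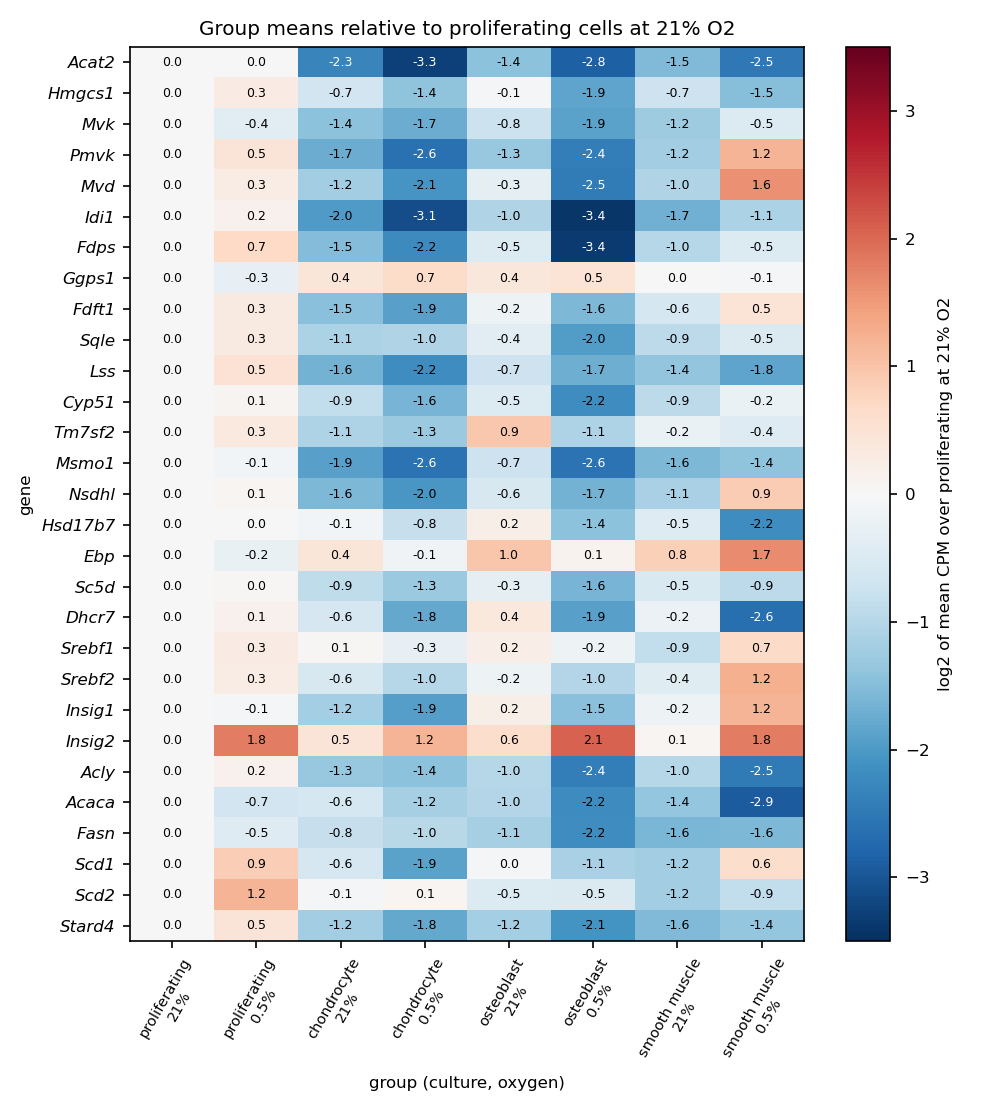
Mean TMM-scaled CPM of each gene in each group, as log2 of the ratio to proliferating cells at 21% O2 (rows, genes in order of role; columns, groups; red higher, blue lower; n = 4 at 21% and n = 3 at 0.5% O2). Hypoxic osteoblast and hypoxic chondrocyte columns are mostly blue, while 8 genes peak in the hypoxic smooth muscle column, where 1 does when scaled by total count alone.

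In proliferating cells most of these genes were higher at 0.5% O2 on the TMM scale, mainly by small amounts. Of 29 genes, 17 rose and 4 fell, with 18 showing no overlap between the groups, where 65% of all genes tested showed none. Over all genes tested 33.1% were called higher and 32.3% lower at an adjusted p under 0.05 (edgeR's quasi-likelihood test). Scaling by total count alone moved the share of higher calls among all calls from 50.6% to 44.7%, and Mvd, Idi1 and Cyp51 lost their call. The median log2 fold change was 0.21, against 0.01 over all genes. Insig2, which retains SREBP in the membrane, was at 29.8, 29.9, 28.4 and 34.9 CPM in the normoxic libraries and at 105, 106 and 108 CPM in the hypoxic ones. All hypoxic values lay above all normoxic ones, a 3.59-fold rise (log2 fold change 1.84 ± 0.07 SE, adjusted p = 8.46e-11). The desaturase genes followed, with Scd2 up 2.37-fold (1.24 ± 0.05, adjusted p = 1.27e-10) and Scd1 up 1.88-fold (0.91 ± 0.05, adjusted p = 4.8e-09).

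The 4 falls in proliferating cells were those of 2 enzymes that build the fatty acid chain and 2 enzymes of the mevalonate arm. Acaca (acetyl-CoA carboxylase, which makes malonyl-CoA) was at 143, 139, 146 and 124 CPM at 21% O2 and at 90, 86.1 and 86.5 CPM at 0.5% O2. The groups did not overlap, and Acaca fell 1.51-fold (log2 fold change -0.60 ± 0.06, adjusted p = 6.74e-07). Fasn, fatty acid synthase, went from 476, 472, 447 and 406 CPM to 347, 334 and 306 CPM, again with no overlap (-0.40 ± 0.06, adjusted p = 5.25e-05). Mvk (mevalonate kinase) went from 60.5, 64.0, 61.8 and 62.4 CPM to 48.5, 51.7 and 42.8 CPM (-0.33 ± 0.07, adjusted p = 0.000584). The remaining fall was that of Ggps1, geranylgeranyl diphosphate synthase, which feeds protein prenylation (-0.24). Acaca and Fasn therefore fell while Scd1 and Scd2, which act on the finished chain, rose.

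By role, 5 of 8 genes of the mevalonate arm and 3 of 3 of squalene and ring closure rose in proliferating cells, as did 2 of the 8 after lanosterol, beside 33.1% of all genes; the roles were not tested against each other. Lss, lanosterol synthase, rose from 144 to 183 CPM over the normoxic libraries to 221 to 222 CPM over the hypoxic ones. Normoxic replicate 4 had the highest value of its group for 23 of 29 genes. Without it 20 genes rose and 5 fell, with a median of 0.28.

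In chondrocyte cultures most of the genes were lower at 0.5% O2: 1 rose, 19 fell and 9 were not called. Over all genes tested 10.4% were called higher and 11.8% lower, and scaling by total count alone moved the share of higher calls among all calls from 46.9% to 31.8%. Of the 29, 18 showed no overlap between groups, where 31.8% of all genes tested showed none, and the median log2 fold change was -0.55, against -0.01 over all genes. Dhcr7, the reductase that yields cholesterol, was at 10.7, 16.2, 16.9 and 16.6 CPM at 21% O2 and at 6.47, 7.21 and 6.01 CPM at 0.5% O2. That is a 2.31-fold fall without overlap (-1.21 ± 0.17, adjusted p = 0.000415). Idi1, the isopentenyl diphosphate isomerase, went from 25.8, 27.7, 33.0 and 34.7 CPM to 16.5, 12.1 and 13.2 CPM (-1.13 ± 0.14, adjusted p = 0.000154). The steepest fall was that of Scd1, by 2.45-fold (-1.29 ± 0.19, adjusted p = 0.00281).

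Insig2 was the gene that rose in chondrocyte cultures, from 32.4, 44.4, 43.3 and 49.0 CPM to 74.3, 69.5 and 66.7 CPM (0.73 ± 0.12, adjusted p = 0.00134). Falls were counted in 6 of 8 genes of the mevalonate arm, 7 of 8 after lanosterol, 1 of 3 of squalene and ring closure and 2 of 5 of fatty acid synthesis, beside 11.8% of all genes, and the roles were not tested against each other. Normoxic chondrocyte replicate 1 had the lowest value of its group for 27 of 29 genes. Without it 21 genes fell, and over all single libraries left out 14 to 21 fell. That library also had the lowest chondrocyte marker sum of its group, 6990 CPM, where the group reached 14200 CPM. The hypoxic chondrocyte libraries summed to 5310 to 5570 CPM on those markers, and 4 of 5 tested were lower at 0.5% O2. Col2a1, the main cartilage collagen, went from 3510 ± 2340 (SD, n = 4) to 274 ± 90.4 CPM (n = 3), and Col11a1, which makes up most of the hypoxic sum, was not called. Of the osteoblast markers 3 of 6 were lower in the same comparison. Whether these marker differences have a part in the falls was not tested.

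Osteoblast cultures showed the widest fall: 26 of 29 genes were lower at 0.5% O2, 1 was higher and 2 were not called, and 27 showed no overlap, where 58.1% of all genes tested showed none. Over all genes tested 27.0% were called higher and 27.3% lower, and scaling by total count alone moved the share of higher calls from 49.6% to 36.9%. The median log2 fold change was -1.29, against -0.03 over all genes. Idi1 was at 61.1, 58.7, 59.9 and 51.9 CPM in the normoxic libraries and at 12.7, 11.3 and 9.89 CPM in the hypoxic ones. With no overlap, it fell 5.13-fold (-2.36 ± 0.11, adjusted p = 5.73e-07). Dhcr7 went from 30.8, 28.4, 28 and 30.5 CPM to 6.50, 5.88 and 5.70 CPM, a 4.89-fold fall (-2.29 ± 0.10, adjusted p = 4.15e-07). Fdps, which makes farnesyl diphosphate for sterols and prenylation, went from 3.74, 4.97, 4.54 and 4.32 CPM to 0.851, 0.515 and 0.422 CPM. Its fall was the largest (-2.88 ± 0.28, adjusted p = 3.55e-05), but it rests on 22, 15 and 12 counts in the hypoxic libraries.

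By role, the falls in osteoblast cultures were those of 7 of 8 genes of the mevalonate arm, 3 of 3 of squalene and ring closure, 8 of 8 after lanosterol, 3 of 4 regulators, 4 of 5 of fatty acid synthesis and Stard4, the sterol carrier, beside 27.3% of all genes. Mvd, diphosphomevalonate decarboxylase, went from 44.8, 43.1, 45.4 and 34.4 CPM to 10.3, 9.86 and 8.38 CPM (log2 fold change -2.14). Hmgcs1, HMG-CoA synthase, whose promoter is shown above, went from 341, 335, 332 and 265 CPM to 109, 83.5 and 85.7 CPM. Neither gene's groups overlapped. The genes not called were Ggps1 (0.07) and Scd2 (-0.04).

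The regulators split in osteoblast cultures. Srebf2 was at 338, 342, 326 and 287 CPM at 21% O2 and at 183, 185 and 179 CPM at 0.5% O2, without overlap. Insig1 went from 142, 131, 138 and 80.0 CPM to 34.5, 35.5 and 45.5 CPM (-1.67). Insig2 went the other way, from 48.5, 51.0, 50.0 and 38.4 CPM to 130, 120 and 133 CPM, a 2.72-fold rise (1.44 ± 0.11, adjusted p = 6.34e-06). Normoxic replicate 4, the library with Alpl and Sp7 above the other 3, had the lowest value of its group for 21 of 29 genes. Without it, the counts were again 26 lower and 1 higher, with a median of -1.37. With low oxygen 3 of 5 osteoblast markers tested were higher, where 27.0% of all genes were. Of the smooth muscle markers 3 of 5 were lower, where 27.3% of all genes were, and their sums went from 3560 to 5100 CPM to 2160 to 2430 CPM. The 9 adipocyte markers went from sums of 10.5 to 17.6 CPM to 55.8 to 60.3 CPM, with 2 of 4 tested higher (Pparg, from a mean of 5.4 to 36.1 CPM, and Fabp4, from 3.74 to 21 CPM), 2 lower and the defining gene Adipoq at 0 in both groups. Whether these differences have a part in the falls was not tested.

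**Figure D2:**
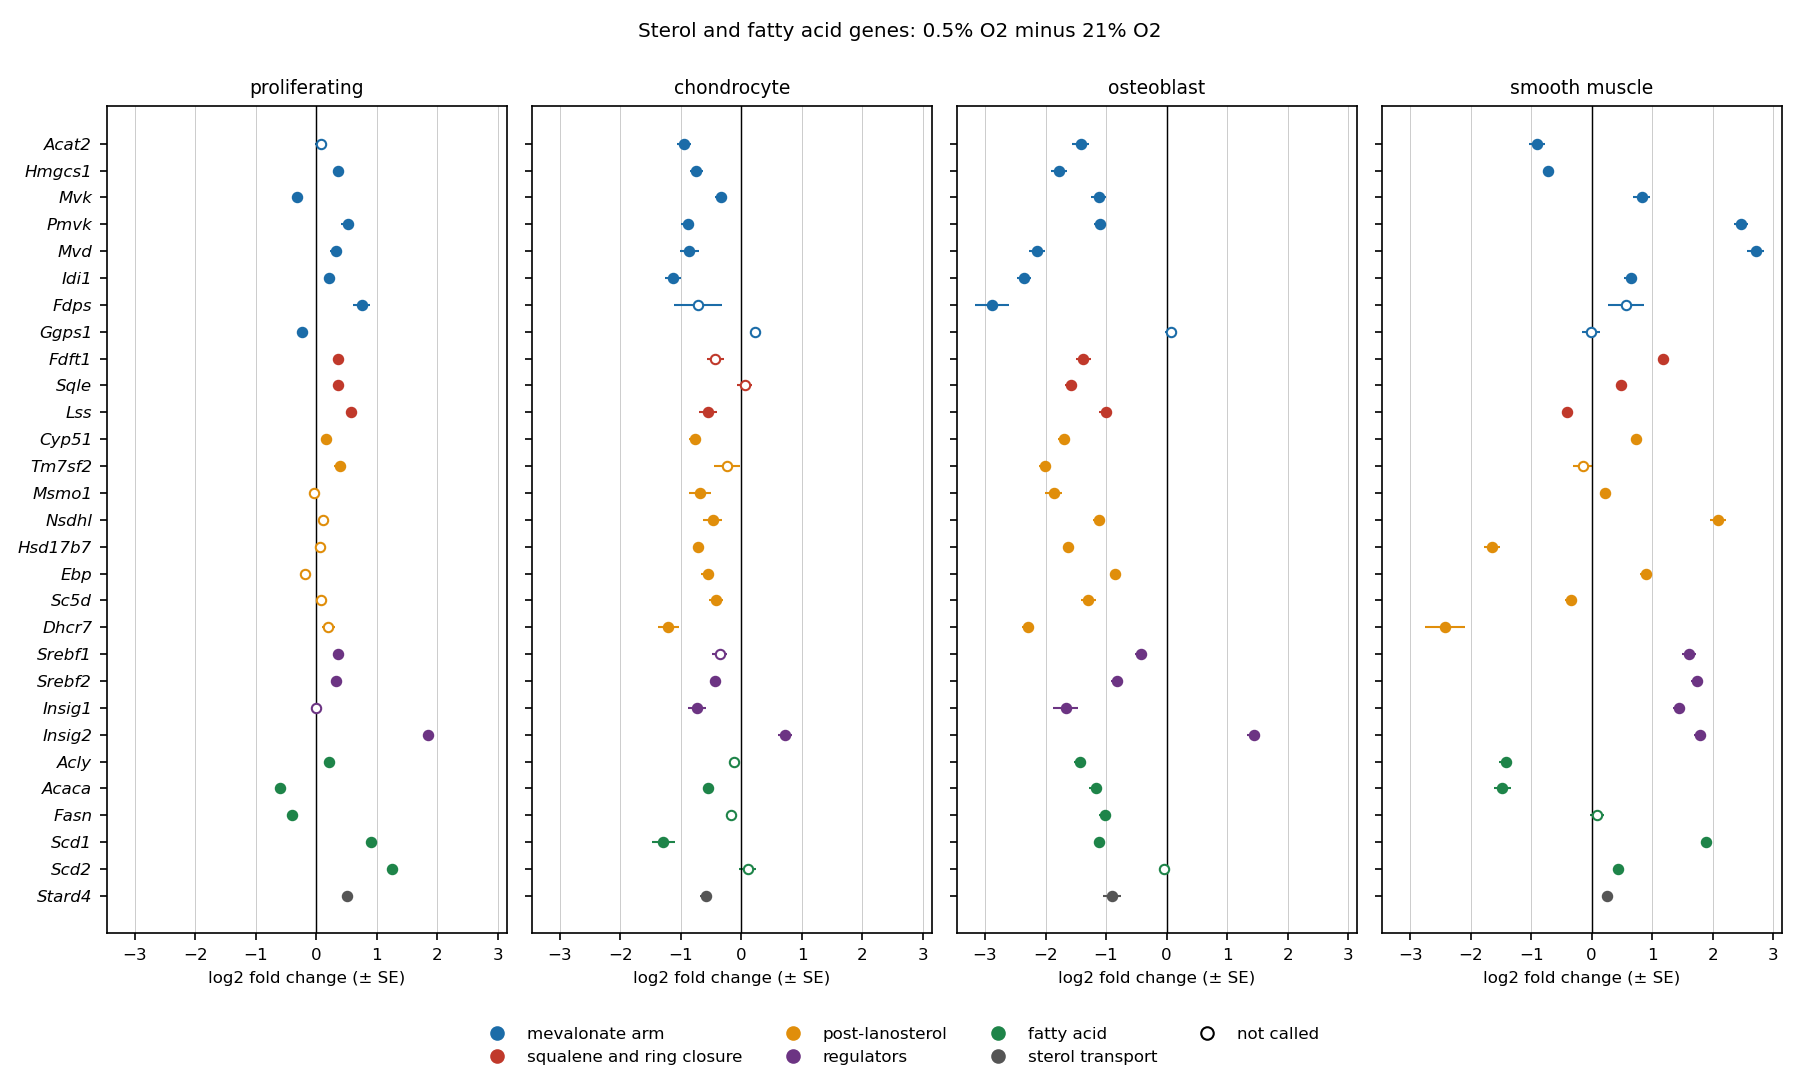
Log2 fold change (0.5% minus 21% O2) with its SE for each gene in the 4 kinds of culture, coloured by role, with open symbols for genes not called at an adjusted p under 0.05. Insig2 lies to the right of 0 in all 4 panels, and in the osteoblast panel every gene but Insig2 and Ggps1 lies to the left, 26 of them called.

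Smooth muscle cultures gave a mixed response: 17 of 29 genes were higher at 0.5% O2, 8 lower and 4 not called, with 24 showing no overlap, where 75.0% of all genes tested showed none. Over all genes tested 35.4% were called higher and 40.2% lower. The median log2 fold change was 0.48, against -0.12 over all genes. Mvd went from 27.2, 22.3, 26.2 and 25.5 CPM to 124, 200 and 151 CPM, a 6.54-fold rise without overlap (2.71 ± 0.14, adjusted p = 9.95e-11). Pmvk, phosphomevalonate kinase, went from 23.1, 19.5, 22.0 and 24.1 CPM to 98.2, 136 and 119 CPM (2.47 ± 0.12, adjusted p = 4.76e-11). Nsdhl, which removes the methyl groups of lanosterol, went from 32.2, 33.8, 32.0 and 30.8 CPM to 98.1, 164 and 133 CPM (2.09 ± 0.13, adjusted p = 1.83e-09). When total count alone set the scale, these log2 fold changes were 1.33 (Mvd), 1.10 (Pmvk) and 0.71 (Nsdhl), all still called. All 4 regulators rose, with Srebf2 at 273, 265, 241 and 310 CPM before and 977, 816 and 807 CPM after, but scaled by total count alone Srebf1 (0.24) and Insig1 (0.07) were not called.

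Falls in smooth muscle cultures included steps of the same pathway. Dhcr7 went from 19.2, 20.3, 18 and 21.1 CPM to 0.975, 5.48 and 4.45 CPM (-2.42 ± 0.34, adjusted p = 1.67e-05), on 13, 55 and 48 counts. Hsd17b7, a sterol ketoreductase, went from 39.0, 44.7, 42.2 and 37.1 CPM to 14.1, 12.9 and 10.4 CPM (-1.64 ± 0.13, adjusted p = 2.41e-08). Acaca went from 49.0, 56.4, 53.4 and 55.7 CPM to 18.1, 14.1 and 23.2 CPM (-1.48 ± 0.14, adjusted p = 1.85e-07). None of these pairs of groups overlapped, and scaled by total count alone the falls were larger, at -3.80 (Dhcr7), -3.01 (Hsd17b7) and -2.84 (Acaca).

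Values in the hypoxic smooth muscle libraries depended on scaling and moved with gene length. When libraries were scaled by total count alone, 6 genes were called higher and 21 lower, the median over all genes moved from -0.12 to -1.49, and the share of higher calls among all genes called from 46.8% to 15.6%. Sqle (-0.89), Cyp51 (-0.64), Msmo1 (-1.16) and Scd2 (-0.93) then reversed direction. Over all genes tested, the median log2 fold change went from 1.58 among genes with exon lengths of up to 1 kb to -0.86 among those over 12 kb. Pmvk has 1713 bp of exon, Mvd 1859 bp and Acaca 17074 bp. Set against the median of their length class, 22 of 29 genes lay above it and 7 below. The largest excesses were those of Scd1 (2.19), Srebf2 (2.19) and Mvd (2.11), while Dhcr7 lay at -2.11. Adipocyte marker sums also moved, from 52 to 64.4 CPM at 21% O2 to 5.17 to 6.88 CPM at 0.5% O2. At 21% O2 that sum was nearly all Lpl, at a mean of 55.7 CPM, against 1.7 CPM at 0.5% O2. Of 4 adipocyte markers tested 2 were lower and 1 higher, where 40.2% of all genes were lower and 35.4% higher. Fabp4 went the other way, from a mean of 0.0926 to 1.62 CPM. How far length, ribosomal RNA and these markers bear on these values was not tested.

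**Figure D3:**
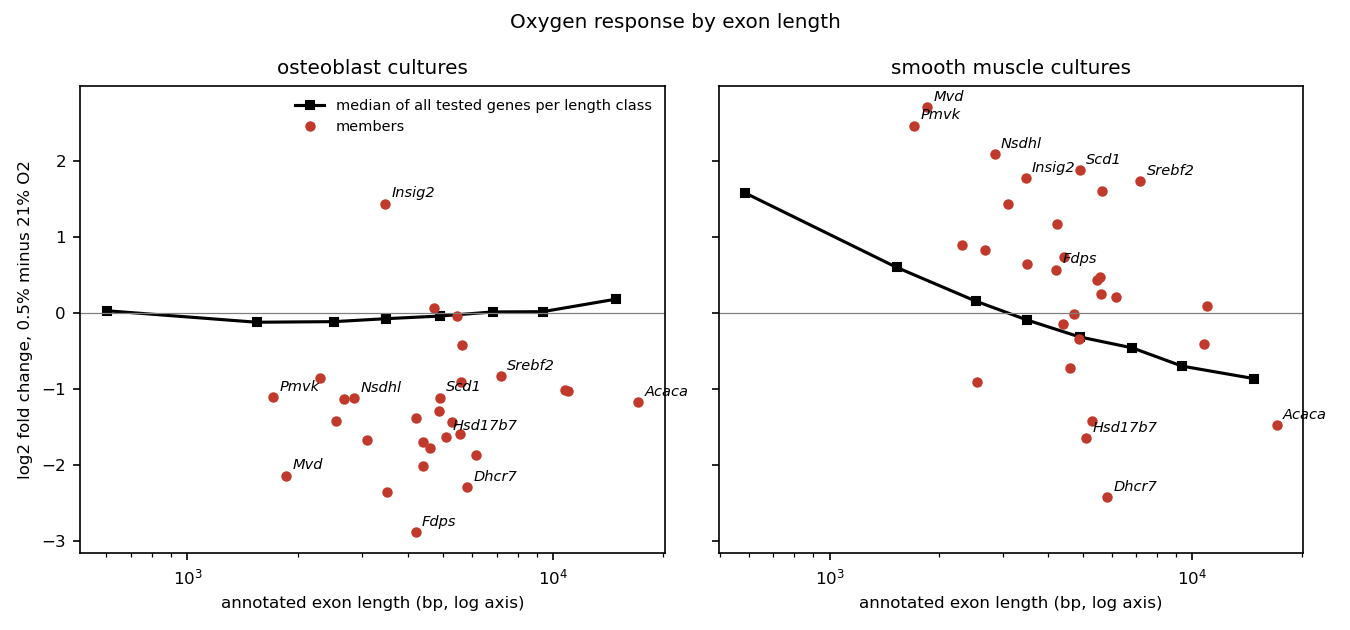
Log2 fold change (0.5% minus 21% O2) of the 29 genes (red points) against annotated exon length on a log axis, with the median of all tested genes in each of 8 length classes (black squares and line). The line stays near 0 in osteoblast cultures and falls from 1.58 to -0.86 in smooth muscle cultures, where 22 of 29 points lie above the median of their class.

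Whether a culture's response to oxygen differed from that of proliferating cells was tested directly, as an interaction in the 4 groups concerned. The 3 tests share the proliferating libraries. For chondrocyte cultures the response was lower for 23 of 29 genes and higher for 1, where 21.9% of all genes were lower and 21.6% higher. For osteoblast cultures it was lower for 28 of 29 and higher for 1, Ggps1, where 25.3% of all genes were lower and 28.9% higher. For smooth muscle cultures it was higher for 14 and lower for 10, where 34.9% of all genes were higher and 35.5% lower. Scaled by total count alone, that last test gave 3 genes higher and 21 lower, and the share of higher calls over all genes moved from 49.6% to 16.6%. The median differences on the log2 scale were -0.77, -1.58 and 0.27.

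Among single genes, Scd1 differed most between chondrocyte cultures and proliferating cells (-2.19 ± 0.21, adjusted p = 2.7e-06). Fdps came next there (-1.45 ± 0.41, adjusted p = 0.00824). In osteoblast cultures the largest differences were those of Fdps, on the 12 to 22 counts given above (-3.59 ± 0.29, adjusted p = 6.19e-08) and Idi1 (-2.53 ± 0.12, adjusted p = 4.72e-10). Ggps1 was the exception in both tests, at 0.49 ± 0.11 (adjusted p = 0.00188) in chondrocyte cultures and 0.36 ± 0.13 (adjusted p = 0.0272) in osteoblast cultures. The latter call was lost when any of 3 single libraries was left out, when scaled by total count alone (adjusted p = 0.149), with at least 10 counts in every library and with all 28 libraries in one fit. In smooth muscle cultures Mvd (2.43 ± 0.19, adjusted p = 9.34e-10) and Nsdhl (2.02 ± 0.16, adjusted p = 6.93e-10) were higher. Dhcr7 (-2.60 ± 0.35, adjusted p = 3.28e-06) and Hsd17b7 (-1.67 ± 0.14, adjusted p = 4.06e-10) were lower. With total-count scaling these differences were 1.09 (Mvd), 0.68 (Nsdhl), -3.93 (Dhcr7) and -3.00 (Hsd17b7).

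**Figure D4:**
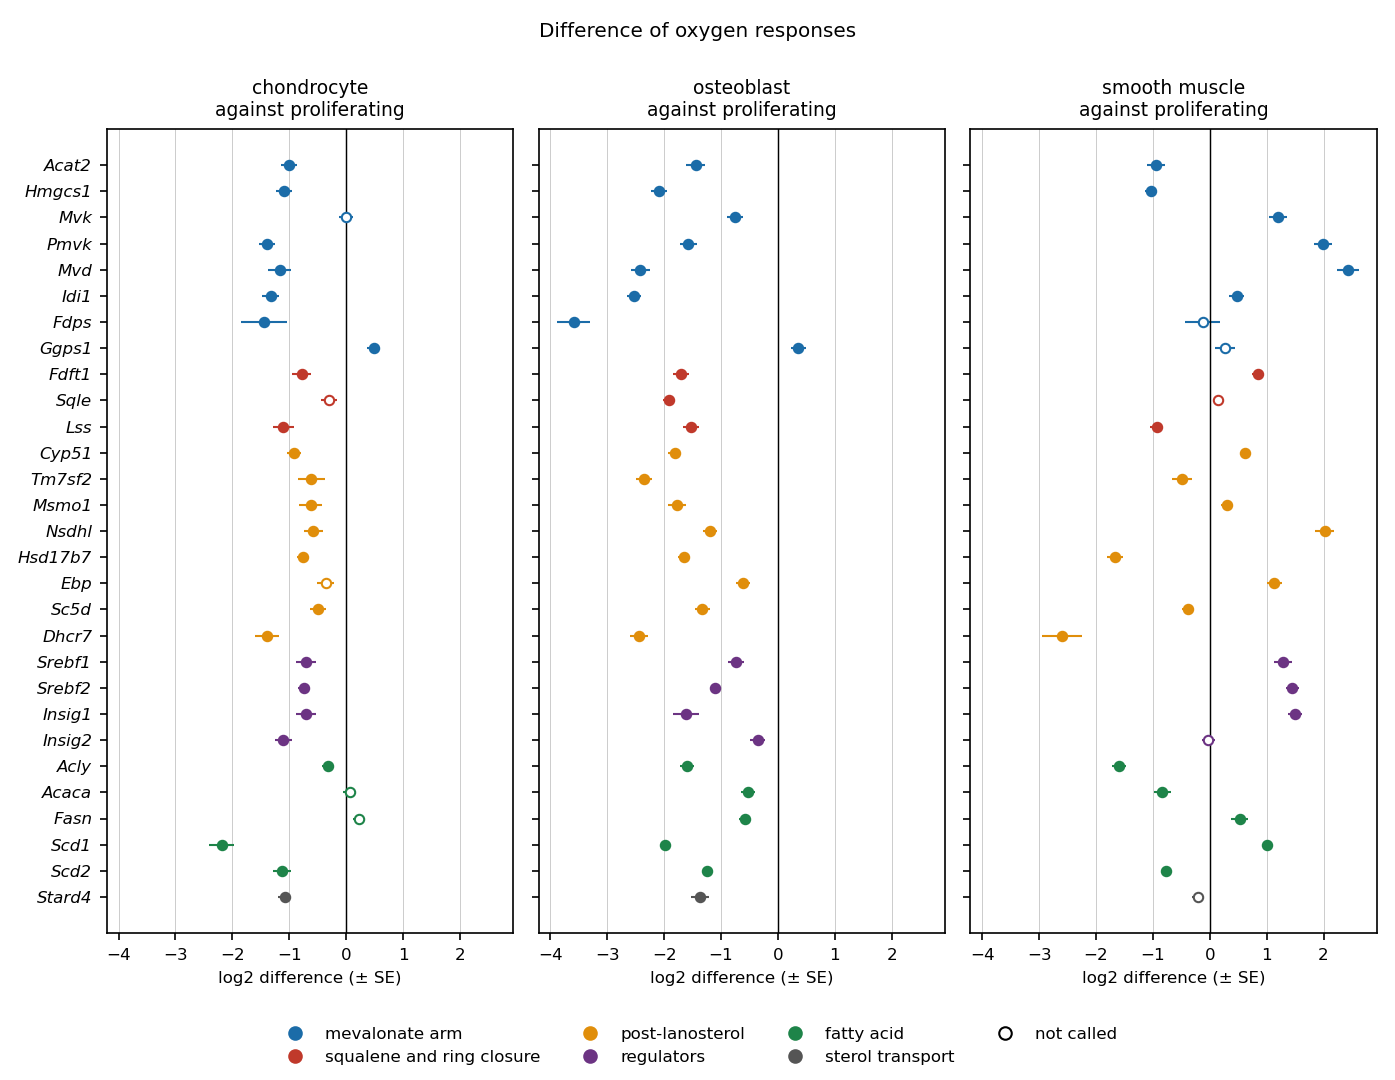
Difference between the oxygen response (0.5% minus 21% O2) of each differentiated culture and that of proliferating cells, on the log2 scale with its SE, coloured by role, with open symbols for genes not called. In the osteoblast panel 28 of 29 genes lie below 0, with Fdps at -3.59, and in the smooth muscle panel genes fall on both sides.

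The 6 enzymes of the set that use molecular oxygen were described apart from the 18 enzymes that do not. In osteoblast cultures 5 of 6 fell (median -1.44) beside 17 of 18 (median -1.40), where 27.3% of all genes did. In chondrocyte cultures 4 of 6 fell (median -0.56 in both sets) beside 12 of 18, where 11.8% of all genes did. In proliferating cells 4 of 6 rose (median 0.26) beside 9 of 18 (median 0.20), where 33.1% of all genes did. In smooth muscle cultures 5 of 6 rose (median 0.46) beside 7 of 18 (median 0.04), where 35.4% of all genes did. Scaled by total count alone, the smooth muscle counts were 1 of 6 higher and 5 lower (median -0.91) beside 3 of 18 higher and 15 lower (median -1.33). These are descriptions of small sets and were not tested against each other.

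Sqle, squalene epoxidase, uses the first molecule of oxygen in the sterol branch. It was at 286, 294, 288 and 327 CPM in normoxic and 370, 365 and 376 CPM in hypoxic proliferating libraries. Those groups did not overlap (0.36 ± 0.06, adjusted p = 5.23e-05). In chondrocyte cultures it was at 112, 133, 143 and 168 CPM and at 158, 132 and 145 CPM, overlapping and not called (adjusted p = 0.805). Osteoblast libraries had 247, 234, 228 and 216 CPM against 85.5, 75.3 and 70.3 CPM, a 3.00-fold fall (adjusted p = 2.13e-06). Smooth muscle libraries had 156, 159, 157 and 162 CPM against 202, 215 and 216 CPM (0.48 ± 0.07, adjusted p = 2.09e-05), a direction that turned when scaled by total count alone (-0.89, adjusted p = 2.06e-08). The osteoblast response differed from the proliferating one by -1.91 on the log2 scale (adjusted p = 1.68e-09).

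Cyp51, the lanosterol demethylase, was at 274, 280, 271 and 309 CPM in normoxic and 303, 290 and 316 CPM in hypoxic proliferating libraries. These groups overlapped, and the call (0.15 ± 0.06, adjusted p = 0.03) was lost in 5 of 7 fits that left out 1 library and when scaled by total count alone (adjusted p = 0.252). In chondrocyte cultures it went from 133, 144, 167 and 180 CPM to 101, 88.0 and 86.5 CPM (-0.77 ± 0.10, adjusted p = 0.00042). Osteoblast libraries went from 213, 212, 214 and 180 CPM to 69.8, 58.8 and 60.4 CPM (-1.70 ± 0.10, adjusted p = 2.17e-06). Smooth muscle libraries had 149, 149, 156 and 147 CPM and then 235, 244 and 240 CPM (0.74 ± 0.07, adjusted p = 1.65e-07), which turned to a fall when scaled by total count alone (-0.64, adjusted p = 1.02e-06). The latter 3 comparisons showed no overlap.

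Msmo1, which oxidises the methyl groups of sterol intermediates, was at 236, 238, 251 and 275 CPM in normoxic and 230, 228 and 241 CPM in hypoxic proliferating libraries, overlapping and not called (adjusted p = 0.527). Chondrocyte libraries went from 55.2, 62.1, 65.7 and 84.1 CPM to 53.2, 35.2 and 36.8 CPM (-0.68 ± 0.18, adjusted p = 0.0307), a call lost in 4 of 7 fits without 1 library. Osteoblast libraries went from 163, 163, 161 and 115 CPM to 45.9, 38.7 and 39.6 CPM (-1.86 ± 0.14, adjusted p = 7.45e-06). Smooth muscle libraries had 85.3, 84.4, 86.0 and 81.1 CPM beside 85.2, 95.5 and 99.6 CPM (0.21 ± 0.08, adjusted p = 0.0296), overlapping. That call was lost in 6 of 7 such fits, and scaled by total count alone Msmo1 was lower there (-1.16, adjusted p = 5.91e-09). The osteoblast fall was the response of Msmo1 that kept its call in all 7.

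Sc5d, lathosterol oxidase, was nearly level in proliferating cells, at 101, 103, 96.9 and 101 CPM and at 102, 104 and 100 CPM (adjusted p = 0.144). In chondrocyte cultures it was at 42.2, 55.9, 59.7 and 58.9 CPM and at 44.9, 38.0 and 38.5 CPM, overlapping (-0.43 ± 0.12, adjusted p = 0.0222), with the call lost in 4 of 7 fits without 1 library. Osteoblast libraries went from 87.0, 85.2, 79.3 and 67.1 CPM to 37.1, 33.5 and 27.1 CPM (-1.29 ± 0.13, adjusted p = 4.5e-05). Smooth muscle libraries went from 66.9, 69.2, 74.7 and 68.0 CPM to 49.2, 52.5 and 56.0 CPM (-0.35 ± 0.09, adjusted p = 0.00255), or -1.72 when scaled by total count alone. The latter pairs of groups did not overlap.

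Scd1 and Scd2 put the double bond into stearoyl-CoA and palmitoyl-CoA. In proliferating libraries Scd1 was at 385, 387, 389 and 430 CPM at 21% O2 and at 709, 709 and 737 CPM at 0.5% O2. Chondrocyte libraries had Scd1 at 177, 297, 317 and 270 CPM and then at 123, 101 and 102 CPM. In osteoblast cultures it went from 399, 403, 375 and 382 CPM to 189, 168 and 185 CPM, a 2.16-fold fall (-1.11 ± 0.08, adjusted p = 7.83e-06). Smooth muscle libraries went from 174, 174, 168 and 168 CPM to 597, 644 and 571 CPM, a 3.69-fold rise (1.88 ± 0.07, adjusted p = 4.03e-12) that came to 0.51 on the log2 scale when scaled by total count alone. None of the 4 pairs of groups overlapped, with rises in 2 and falls in 2.

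The paralog Scd2 was at 1840, 1830, 1880 and 2010 CPM in normoxic and at 4300, 4260 and 4360 CPM in hypoxic proliferating libraries. In chondrocyte and osteoblast cultures, where Scd1 fell, Scd2 was not called. Its chondrocyte libraries had 1300, 1920, 1940 and 2130 CPM against 2040, 1930 and 1930 CPM, overlapping (adjusted p = 0.647). Osteoblast libraries had 1380, 1450, 1400 and 1210 CPM against 1350, 1290 and 1320 CPM, also overlapping (adjusted p = 0.738). Smooth muscle libraries went from 806, 818, 742 and 872 CPM to 1040, 1020 and 1080 CPM (0.44 ± 0.07, adjusted p = 7.39e-05), but were lower at 0.5% O2 when scaled by total count alone (-0.93, adjusted p = 1.8e-08).

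**Figure D5:**
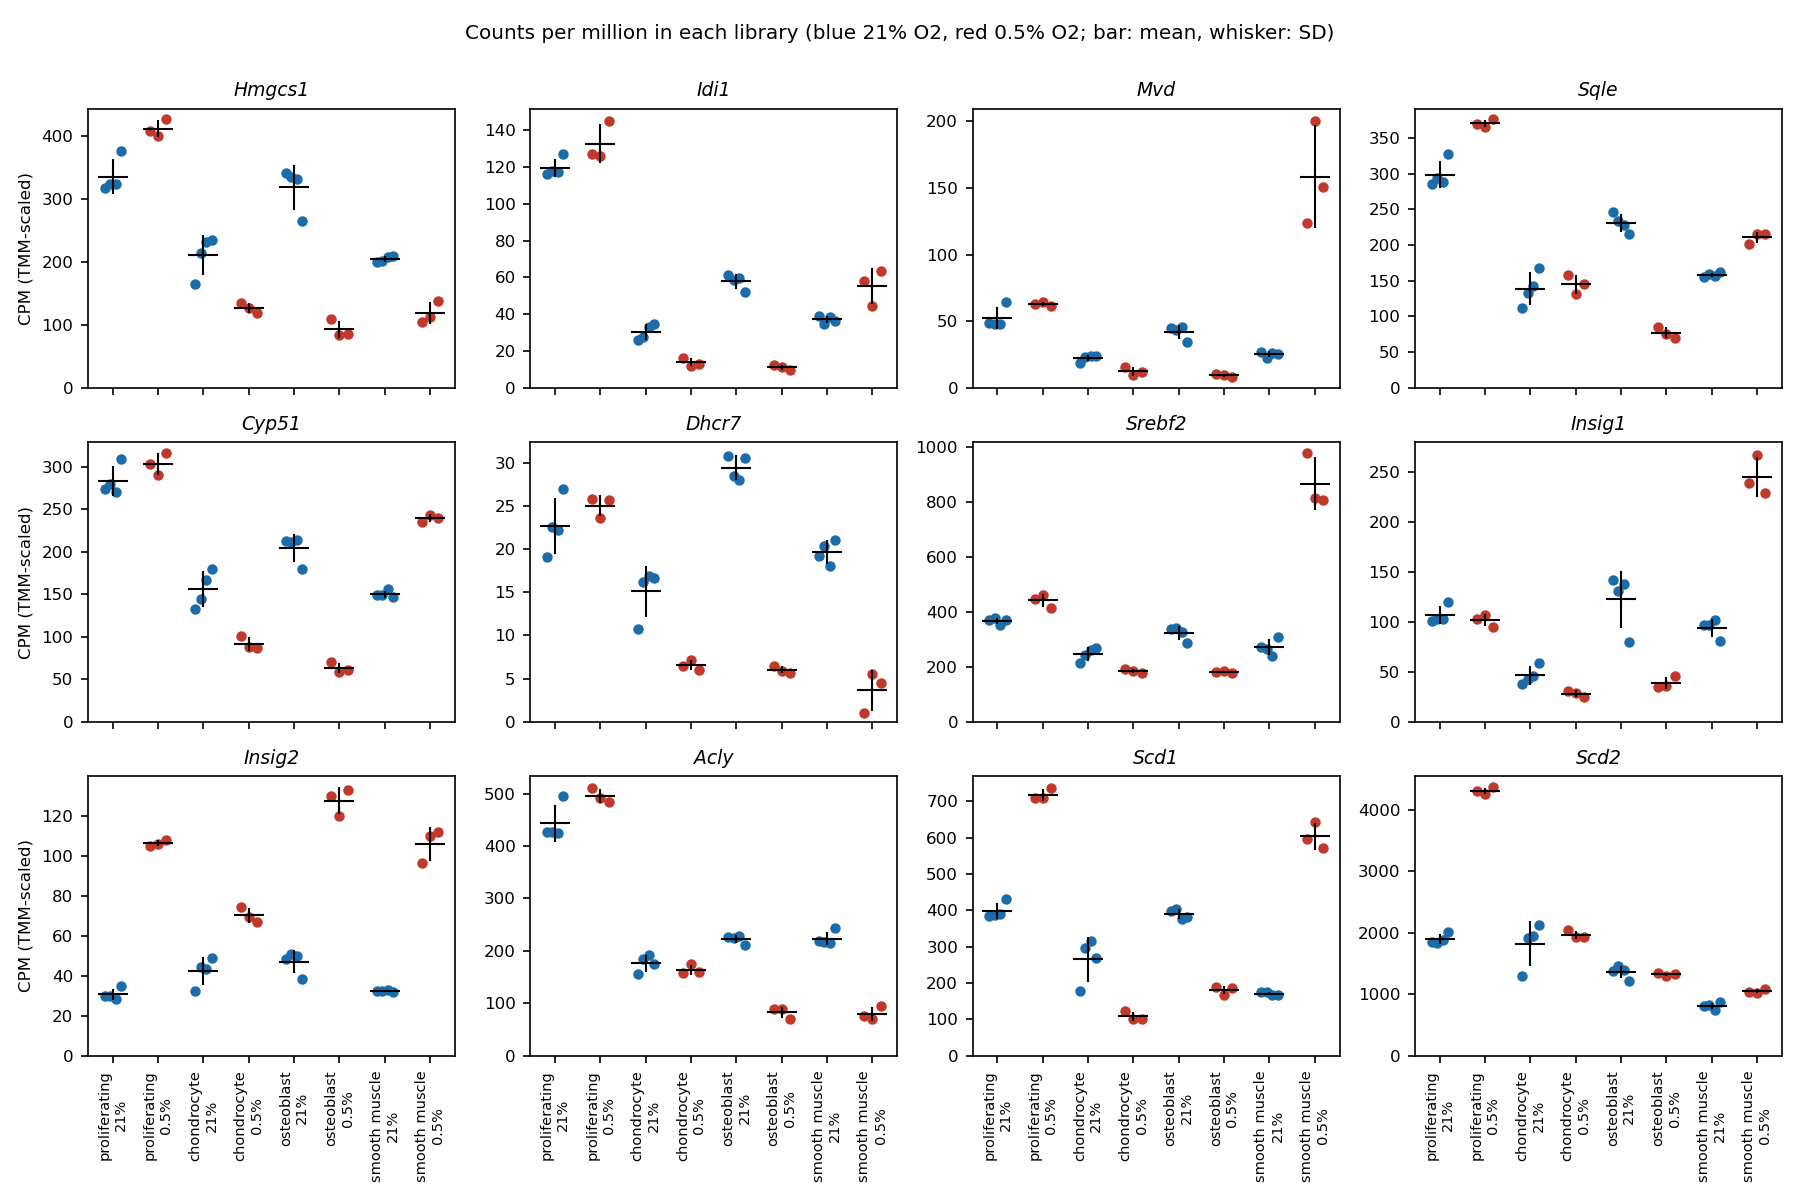
TMM-scaled CPM of 12 of the genes in each library (points; blue 21% O2, red 0.5% O2), with the group mean (bar) and SD (whisker), on linear axes from 0. Idi1, Cyp51 and Sqle are at their lowest in hypoxic osteoblast libraries, Insig2 is higher in red than in blue in every culture, and Dhcr7 is lowest in hypoxic smooth muscle libraries.

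Across the 4 oxygen responses, which use separate libraries, 1 gene was called higher in all (Insig2) and 1 was called lower in all (Acaca). In 7 genes (Pmvk, Mvd, Idi1, Cyp51, Srebf2, Scd1 and Stard4) the call was higher in proliferating and smooth muscle cultures and lower in chondrocyte and osteoblast cultures. The share of all genes with each of these patterns was not counted, so it is open whether they are unusual. Scaled by total count alone, Mvd, Idi1 and Cyp51 were not called in proliferating cells, and Idi1 (-0.72), Cyp51 (-0.64) and Stard4 (-1.11) were lower in smooth muscle cultures, so that Pmvk, Srebf2 and Scd1 were left with that pattern. The proliferating call of Cyp51 was also lost in 5 of 7 fits without 1 library. Insig1 and Insig2, which share the role of holding SREBP, were both called higher in smooth muscle cultures on the TMM scale (with Insig1 not called when scaled by total count alone). Insig1 was at 101, 103, 103 and 120 CPM in normoxic and 103, 107 and 95.2 CPM in hypoxic proliferating libraries. In chondrocyte cultures it went from 37.5, 42.9, 46.4 and 59.0 CPM to 31.2, 28.8 and 24.4 CPM (-0.73). Insig1 in smooth muscle cultures went from 97.5, 96.9, 102 and 80.9 CPM to 239, 268 and 229 CPM (1.44), and Insig2 from 32.5, 32.3, 32.7 and 31.7 CPM to 96.4, 110 and 112 CPM (1.78, or 0.41 when scaled by total count alone). Srebf1, the factor most tied to fatty acid genes, rose in proliferating (0.36) and smooth muscle cultures (1.61) and fell in osteoblast cultures (-0.42). In chondrocyte cultures it stood at -0.36 and was not called (adjusted p = 0.0802).

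At 21% O2 most of the genes were lower in each kind of differentiated culture than in proliferating cells. The cultures compared also differ in serum, bFGF and LIF and, for chondrocyte and osteoblast cultures, in dexamethasone and BMP-2. Differentiation and these differences of medium cannot be told apart here. Most normoxic osteoblast libraries had Alpl and Sp7 near the floor, as given above. These 3 comparisons share the same 4 proliferating libraries. In chondrocyte cultures 23 of 29 fell and 3 rose, where 37.2% of all genes were lower and 37.7% higher, a share of higher calls of 50.3% that moved to 34.7% when scaled by total count alone. Smooth muscle cultures showed 23 falls and 1 rise, where 38.9% of all genes were lower and 40.8% higher. Osteoblast cultures showed 16 falls and 7 rises, where 37.8% of all genes were lower and 40.9% higher. The median log2 fold changes were -1.01, -0.94 and -0.32.

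Acat2, the cytosolic thiolase that condenses acetyl-CoA, led the falls in chondrocyte cultures. It was at 126, 138, 128 and 165 CPM in proliferating and at 22.7, 29, 29.2 and 30.7 CPM in chondrocyte libraries, 4.75-fold lower (-2.25 ± 0.11, adjusted p = 7.3e-09). In osteoblast libraries Acat2 was at 52.7, 53.5, 53.7 and 45.8 CPM (-1.38 ± 0.10, adjusted p = 8.61e-07). Idi1 was lower in chondrocyte cultures by 3.74-fold (-1.90 ± 0.09, adjusted p = 2.25e-09) and in smooth muscle cultures by 3.10-fold (-1.63 ± 0.06, adjusted p = 8.42e-13). Pmvk in osteoblast cultures was at 20.6, 21.3, 19.3 and 21.1 CPM, against 44.7, 47.9, 49.4 and 63.7 CPM in proliferating libraries (-1.27 ± 0.12, adjusted p = 4.14e-06). Fasn in smooth muscle cultures was at 152, 147, 127 and 165 CPM, 2.94-fold below proliferating cells (-1.56 ± 0.08, adjusted p = 2.35e-11). In each of these pairs the groups were apart.

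Ebp, the sterol isomerase, rose in all 3 differentiated cultures at 21% O2, from 24.4, 26.1, 29.6 and 23.8 CPM in proliferating libraries. It reached 53.2, 53.1, 51.4 and 44.7 CPM in osteoblast cultures (1.02 ± 0.09, adjusted p = 2.65e-06) and 48.4, 48.8, 47.3 and 39.4 CPM in smooth muscle cultures (0.88 ± 0.08, adjusted p = 1.02e-07), both without overlap. In chondrocyte cultures it was at 28.7, 36.8, 37.3 and 37.1 CPM, overlapping (0.50 ± 0.10, adjusted p = 0.000564), and the call was lost when scaled by total count alone (0.15, adjusted p = 0.143). Tm7sf2, a sterol reductase, rose in osteoblast cultures from 13.1, 14.1, 12.8 and 14.7 CPM to 28.4, 26.3, 25.3 and 24.4 CPM (0.99 ± 0.08, adjusted p = 2.02e-06). Insig2 rose in chondrocyte cultures (0.53 ± 0.12, adjusted p = 0.00135), with overlap, a call also lost with that scaling (0.18, adjusted p = 0.156).

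Differentiated cultures at 0.5% O2 were compared with hypoxic proliferating cells, with the same differences of medium. Chondrocyte cultures gave 27 falls and 1 rise, where 34.6% of all genes were lower and 34.9% higher. Osteoblast cultures gave 26 falls and 3 rises, where 35.1% of all genes were lower and 36.2% higher. Smooth muscle cultures gave 17 falls and 8 rises, where 36.2% of all genes were lower and 33.8% higher. Scaled by total count alone, the share of higher calls over all genes moved from 50.2% to 31.8%, from 50.8% to 38.2% and from 48.3% to 15.0%, and the smooth muscle rises went from 8 to 1. The median log2 fold changes were -1.71, -1.88 and -0.69, and the 3 comparisons share the 3 hypoxic proliferating libraries.

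The 8 genes of the mevalonate arm had medians of -2.64 in chondrocyte and -2.80 in osteoblast cultures at 0.5% O2, with 7 of them lower in each. Acat2 was at 137, 141 and 143 CPM in hypoxic proliferating and at 15.3, 15.2 and 13.1 CPM in hypoxic chondrocyte libraries, 9.73-fold lower (-3.28 ± 0.08, adjusted p = 7.48e-13). Idi1, at 127, 126 and 145 CPM in hypoxic proliferating libraries, was 9.55-fold lower in chondrocyte (-3.26 ± 0.11, adjusted p = 5.76e-11) and 11.8-fold lower in osteoblast cultures (-3.56 ± 0.10, adjusted p = 1.04e-13). Fdps went from 9.20, 10.7 and 9.62 CPM to under 1 CPM in each osteoblast library (-4.05 ± 0.24, adjusted p = 4.5e-10). Ggps1, the branch away from sterols, rose instead. It was at 21.5, 19.4 and 22.7 CPM in hypoxic proliferating libraries, 38.7, 42.5 and 41.7 CPM in chondrocyte (0.94 ± 0.09, adjusted p = 4.89e-07) and 39.8, 32.1 and 37.1 CPM in osteoblast libraries (0.77 ± 0.11, adjusted p = 8.58e-06).

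In hypoxic smooth muscle cultures Ebp reached 75.6, 85.6 and 85.6 CPM, against 22.3, 20.8 and 22.5 CPM in hypoxic proliferating cells (2.03 ± 0.10, adjusted p = 6.45e-09). Mvd was also higher there (1.45 ± 0.14, adjusted p = 3.06e-06), but was not called when scaled by total count alone (0.17, adjusted p = 0.255). Acly, which supplies cytosolic acetyl-CoA, went the other way, from 511, 491 and 485 CPM to 75.7, 69.2 and 94.3 CPM (-2.52 ± 0.10, adjusted p = 1.93e-09). Dhcr7 was lower by 6.57-fold (-2.72 ± 0.37, adjusted p = 4.35e-05). With total-count scaling Ebp stood at 0.75 and Acly at -3.79, and Dhcr7 was again called lower. These groups did not overlap. The length trend was present here too, with medians from 1.62 for genes of up to 1 kb to -0.76 for those over 12 kb. In hypoxic osteoblast cultures Ebp was higher by 1.28-fold (0.36 ± 0.09, adjusted p = 0.00319), a call lost when scaled by total count alone (0.13, adjusted p = 0.237).

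A further 33 genes of sterol and fatty acid metabolism outside the 29 were counted for comparison. With low oxygen, 16 of 31 tested rose and 8 fell in proliferating cells, and 4 rose and 11 fell of 31 in chondrocyte cultures. In osteoblast cultures 7 rose and 15 fell of 32, and in smooth muscle cultures 10 rose and 14 fell of 32. Over all genes 33.1% rose and 32.3% fell in proliferating and 10.4% and 11.8% in chondrocyte cultures. The shares were 27.0% and 27.3% in osteoblast and 35.4% and 40.2% in smooth muscle cultures. On the TMM scale, to which these counts belong, the smooth muscle shares of the list thus lie near those of all genes. In osteoblast cultures the falls included those of Elovl6, a fatty acid elongase (-2.50), Fads2, a desaturase of polyunsaturated fatty acids that also uses oxygen (-2.37), and Abcg1, a sterol exporter (-2.83, at a mean of only 0.649 CPM at 0.5% O2). Among the 7 rises there, named after their values were seen, Soat1, which esterifies cholesterol, went from 44.8 ± 2.01 (SD, n = 4) to 208 ± 12.5 CPM (n = 3), with a log2 fold change of 2.21 (adjusted p = 1.63e-07). Lpin1, a phosphatidate phosphatase (1.33), and Npc1, a lysosomal sterol transporter (1.08), followed.

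In proliferating cells the largest rises outside the 29 were those of Acacb (2.87, from a mean of 0.562 CPM), the mitochondrial acetyl-CoA carboxylase, Acss2 (2.69), which makes acetyl-CoA from acetate, Abca1 (2.03), a cholesterol exporter, and Scd3 (1.76). Acss2 went from 9.47 ± 1.84 (SD, n = 4) to 58.3 ± 7.80 CPM (n = 3), with an adjusted p of 2.73e-08. In chondrocyte cultures Fads2 (-1.31), Abca1 (-1.25) and Fads1 (-0.92) fell. Abcg1 was also called lower there, at a mean of 1.61 CPM at 21% O2 and 0.111 CPM at 0.5% O2, too few reads for a fold change. In smooth muscle cultures large changes were those of Mylip, which marks the LDL receptor for breakdown (-4.15), Mbtps1, a protease that cuts SREBP (-2.90), and Npc2, a lysosomal sterol carrier, which rose (2.7). These are values on the TMM scale, in a comparison that depended on scaling and gene length as described above. Ch25h, a cholesterol hydroxylase, was also called lower, at a mean of 3.18 CPM at 21% O2 and 0.192 CPM at 0.5% O2, too few reads for a fold change.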

How the data were processed

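RNA from 28 libraries of O9-1 cells was sequenced from a stranded kit. Reads were aligned to mm10 with HISAT2 2.0.5, and featureCounts 1.5.0-p3 and StringTie 1.3.3b are also named, per the submitters' processing notes. The strand setting and annotation of the counting are not given in the sources used here. The deposited values are raw counts per gene (19869271 to 64693346 in total per library). The authors also deposited tables of their own comparisons with log2 fold changes and p-values, used for symbols and 1 check: over 290 gene and comparison values the fold changes differed by a median of 0.016, with 1 of opposite sign. Another 70 columns of per-library values were not used. Symbols came from the deposited tables for 20019 identifiers and from GENCODE M21 for 34311, with 99 left without one, and exon lengths from GENCODE M21.

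Each comparison was fitted on all genes with edgeR 4.0.16 (R 4.3.3): filterByExpr (minimum count 10, total 15), TMM scaling, the robust quasi-likelihood F test and Benjamini-Hochberg adjustment, called at an adjusted p under 0.05. Pairwise comparisons used 2 groups and differences of oxygen responses 4. Standard errors are the log2 fold change divided by the square root of F. Levels are CPM on the TMM-scaled library size, per kb of exon where genes are compared. The script was tested on simulated data. Named were the 3 largest rises and 3 largest falls of each oxygen response, the 6 oxygen-using enzymes, the 2 largest of each in the other comparisons, and up to 4 genes of the further list, where a gene that this rule names is not reported here; others were added where a role is described. The members and lists were chosen with earlier results of these data known. Alternatives were other scalings, filters, DESeq2 1.42.0, limma 3.58.1 (voom), 1 fit of all 28 libraries, a replicate block and leaving out each library. Same-numbered libraries did not deviate together (correlations of -0.125 to 0.107), so the numbers were not taken to pair them. Replicate pairs (36) differed by more than sampling noise, with chi-square per degree of freedom from 2.891 to 97.05.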

Additional observations from a re-analysis of the deposited data

Results flagged for a closer look

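Of 116 gene and group values with 4 libraries, 20 had 1 library far from the others by Dixon's criterion, where chance gives about 1 in 20. In normoxic proliferating cells replicate 4 stood above the others for Hmgcs1 (376 CPM, others 317 to 324), Mvd (64.4 CPM, others 48.2 to 48.5), Lss (183 CPM, others 144 to 150), Insig1 (120 CPM, others 101 to 103), Acly (496 CPM, others 425 to 427) and Scd1 (430 CPM, others 385 to 389). Ggps1 was low in replicate 3 of that group (24.2 CPM, others 26.5 to 26.9).

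In normoxic osteoblast cultures replicate 4, the library with the highest Alpl and Sp7 of its group, stood below the others for 7 genes. They were Acat2 (45.8 CPM, others 52.7 to 53.7), Hmgcs1 (265 CPM, others 332 to 341), Fdft1 (130 CPM, others 177 to 182), Cyp51 (180 CPM, others 212 to 214), Msmo1 (115 CPM, others 161 to 163), Fasn (184 CPM, others 209 to 210) and Stard4 (40.4 CPM, others 49.9 to 51.6). Mvk was low in replicate 2 (33.4 CPM, others 37.8 to 38.3). Normoxic chondrocyte replicate 1 was low for Ebp (28.7 CPM, others 36.8 to 37.3) and Dhcr7 (10.7 CPM, others 16.2 to 16.9). Normoxic smooth muscle replicate 4 was low for Ebp (39.4 CPM, others 47.3 to 48.8) and high for Srebf1 (68.3 CPM, others 52.6 to 55.2) and Acly (243 CPM, others 215 to 219).

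The named differences between an oxygen response and the proliferating one were picked as the largest called in their own test. That they pass it follows from this choice. On the log2 scale these differences were 0.49 (Ggps1), -2.19 (Scd1) and -1.45 (Fdps) in chondrocyte cultures and 0.36 (Ggps1), -3.59 (Fdps) and -2.53 (Idi1) in osteoblast cultures. The osteoblast call of Ggps1 was lost in the alternative fits named above. In smooth muscle cultures they were 2.43 (Mvd), 2.02 (Nsdhl), -2.60 (Dhcr7) and -1.67 (Hsd17b7).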

How the results depend on the processing

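Over 73 named values and 1238 alternative values of them, 1195 kept direction and call, 38 lost the call, 1 gained it and 4 reversed. Scaling by total count alone gave 6 higher and 21 lower in the smooth muscle oxygen response, with Sqle (-0.89), Cyp51 (-0.64), Msmo1 (-1.16) and Scd2 (-0.93) reversed. It gave 3 higher and 21 lower for the smooth muscle difference from proliferating cells and 0 higher for the osteoblast difference. For differentiation it gave 0 higher (chondrocyte) and 2 higher (smooth muscle) at 21% O2, and 1 higher (osteoblast) and 1 higher (smooth muscle) at 0.5% O2. At least 10 counts in every library gave 2 higher for smooth muscle differentiation at 21% O2 and 0 higher for the osteoblast difference, as did all 28 libraries in one fit (0). With the replicate block, the chondrocyte difference had 2 higher in place of 1, and no other count moved by over 1.5 times. The cause of these shifts was not tested. With 1 library left out, genes called higher ranged from 1 to 2 for the chondrocyte oxygen response (2 without normoxic replicate 4), 3 to 5 for chondrocyte differentiation at 21% O2 (5 without chondrocyte replicate 1) and 1 to 2 for smooth muscle differentiation at 21% O2 (2 without proliferating replicate 4). They ranged from 1 to 2 for the chondrocyte difference (2 without normoxic proliferating replicate 4 or hypoxic chondrocyte replicate 1). For the osteoblast difference they ranged from 0 to 1 (0 without hypoxic proliferating replicate 2, normoxic osteoblast replicate 2 or hypoxic osteoblast replicate 1). Of the 29 genes, Fdps (12) and Dhcr7 (13) had the lowest counts in a single library, which limits their folds.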
